A study of Mus musculus with 6 samples.

Results

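The transcripts of 8 genes that mark and shape dental epithelium were read in the forming furcation of mouse molars with and without Lhx6. The genes were taken by name, though with earlier results of these data known: Trp63, Sp6, Tfap2a, Grhl2, Grhl3, Sox2, Esrp1 and Epcam. They are 8 of 23594 genes listed and 8 of 20114 genes that passed the filter on low counts, so no member was lost to the filter. Tissue came from C57BL/6 mice at postnatal day (PN) 4.5, from the apical furcation of mandibular first molars, cut out by laser-capture microdissection. There were 3 control libraries from wild type mice and 3 libraries from Lhx6-/- mice, each combining tissue of 8 molars. The null allele is a knock-in of a tamoxifen-dependent Cre at Lhx6, homozygous in the mutants, that abolishes the function of the gene. Controls and mutants were littermates, and mice of both sexes were used. The sources used here do not say whether the libraries of a genotype came from different animals, so p-values measure the spread between pooled libraries.

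A molar root is shaped by Hertwig's epithelial root sheath, a double layer of epithelium that grows down from the cervical loop of the enamel organ and lies against the dental mesenchyme. Trp63 maintains stratified epithelia and ectodermal organs, Sp6 and Sox2 act in the enamel lineage and in dental epithelial progenitors, and AP-2 and Grainyhead-like factors open and maintain epithelial gene programmes. Esrp1 directs the splicing of epithelial isoforms and Epcam is a membrane protein of epithelial cells. Lhx6 itself is a transcription factor of the dental mesenchyme, so the comparison asks how epithelial genes stood when a mesenchymal factor was missing.

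The total of estimated counts ran from 60132323 to 76157433 per library, and the values below are counts per 1e+06 counts of the library (CPM) after TMM scaling (factors 0.977 to 1.04). In the order of replicates 1, 2 and 3, which is kept throughout, Lhx6, the targeted gene, read 27.8, 18.2 and 21.9 CPM for control against 12.8, 9.82 and 10.5 CPM for Lhx6-/-, with no overlap. Its log2 fold change was -1.04 (SE 0.16, adjusted p = 0.0210 by the quasi-likelihood test of edgeR, adjusted by Benjamini-Hochberg). Dropping control replicate 3 moved this adjusted p of edgeR to 0.111, dropping Lhx6-/- replicate 2 to 0.110 and dropping Lhx6-/- replicate 3 to 0.0772. Xist, which female cells transcribe from the inactive X, read 792, 411 and 628 CPM for control against 290, 0.230 and 0.053 CPM for Lhx6-/-, so the sex make-up of the pools moved with genotype, and its part in the results was not tested.

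Every one of the 8 genes was detected in every library. Divided by the length of merged exons, Sp6 was by far the most abundant, with a control mean of 62.1 CPM per kb and a range of 55.3 to 72.9. Trp63 came next with 6.58 CPM per kb, followed by Esrp1 with 3.60, Epcam with 3.20, Tfap2a with 0.976, Sox2 with 0.853, Grhl3 with 0.611 and Grhl2 with 0.429. The control libraries separated Sp6 from Trp63, Trp63 from Esrp1 and Epcam from Tfap2a. The levels of the other neighbours in this order overlapped between libraries, so Esrp1 and Epcam could not be ranked against each other, nor could Tfap2a against Sox2, Sox2 against Grhl3 or Grhl3 against Grhl2. In Lhx6-/- tissue Sp6 again led with 62.5 CPM per kb and Trp63 followed with 4.98.

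No member passed an adjusted p of 0.05 in edgeR, where 81 of all 20114 genes tested did (0.403%). None met the rule of a fold of at least 1.5 with an unadjusted p under 0.05, which 660 genes met (3.28%). At an unadjusted p under 0.05 alone, edgeR passed 2 of the 8, Trp63 and Esrp1, both lower in Lhx6-/- tissue, beside 9.81% of all genes. DESeq2, limma-trend and limma voom likewise passed 0 of the 8 at an adjusted p of 0.05 or by the fold rule, and each passed 2 at an unadjusted p under 0.05. The fitted difference was below 0 for 7 of 8 members, beside 50.3% of all genes, and the median log2 fold change was -0.39 for the members and -0.00187 for all genes tested. Only Trp63 had libraries that did not overlap between genotypes, 1 of 8 members. Of all genes, 15.5% had no overlap, 7.68% with the Lhx6-/- libraries all lower. In pooled tissue, fewer epithelial cells and less RNA per epithelial cell cannot be told apart.

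**Figure D1:**
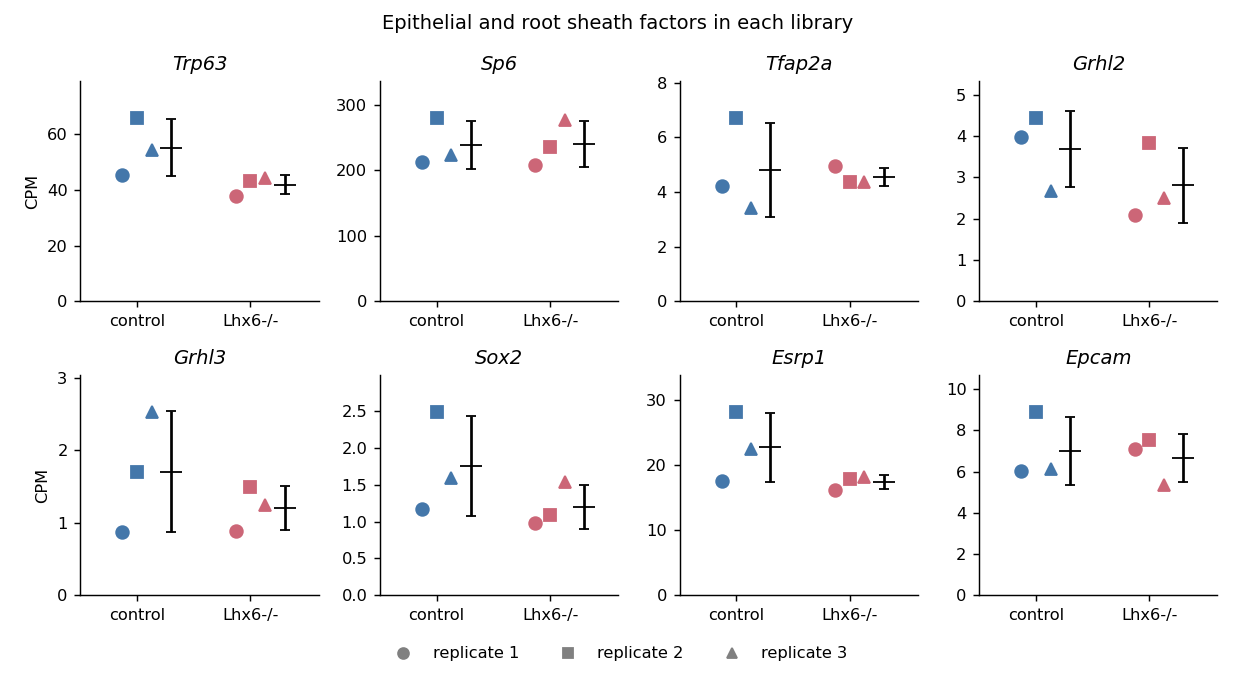
Level of each gene in CPM (vertical axis, from 0) in the 3 control (blue) and 3 Lhx6-/- (red) libraries, with marker shape for the replicate number and the mean ± SD beside the points. Control replicate 2 is the highest library in 7 of the 8 panels, and the genotypes separate only for Trp63, at 45.4 to 65.9 CPM against 37.9 to 44.2 CPM.

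Trp63, the p53 family factor that maintains basal epithelial cells, lies on mm10 at chr16:25683763-25892102 on the plus strand. It read 45.4, 65.9 and 54.4 CPM for control against 37.9, 43.4 and 44.2 CPM for Lhx6-/-. No mutant library reached any control library, although the highest mutant value came close to the lowest control value. The means were 55.2 ± 10.3 CPM (SD, n = 3) and 41.8 ± 3.42 CPM (SD, n = 3), so the Lhx6-/- mean was 75.7% of control. The log2 fold change was -0.40 (SE 0.12, 95% interval -0.68 to -0.13). By edgeR its unadjusted p was 0.00837 and its adjusted p 0.289. Leaving out each library in turn gave log2 fold changes of -0.52 to -0.25, the smallest without control replicate 2, with an unadjusted p under 0.05 in all 6 of these fits.

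Sp6, a zinc finger factor also called epiprofin that is needed for ameloblast differentiation and normal root formation, lies at chr11:97013394-97024734 on the plus strand. Control libraries held 212.6, 280.0 and 223.0 CPM and Lhx6-/- libraries 207.4, 236.0 and 276.3 CPM. The genotypes covered nearly the same range, and each held 1 library near the top of it. The control mean of 239 ± 36.3 CPM (SD, n = 3) stood beside a mutant mean of 239.9 ± 34.6 CPM (SD, n = 3). The log2 fold change was 0.0084 (SE 0.13), and its 95% interval, -0.27 to 0.29, leaves room for a modest change either way. Of the merged exon bases of Sp6, 86.7% are shared with Gm11532 on the opposite strand, and the strand setting of the counting is not given in the sources used here, so reads of the pair could be split between them. Gm11532 was low, at 5.06 CPM in control and 4.92 CPM in Lhx6-/- tissue.

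Tfap2a, the AP-2 alpha factor of surface ectoderm and neural crest, lies at chr13:40715302-40738376 on the minus strand. It read 4.23, 6.71 and 3.42 CPM for control against 4.94, 4.35 and 4.37 CPM for Lhx6-/-. All 3 Lhx6-/- values fell inside the control range, with a log2 fold change of -0.074 (95% interval -0.58 to 0.44). Without control replicate 2 the sign turned, to 0.25. Antisense genes in the table overlap 7.8% (Gm26688) and 5.4% (Gm47061) of its exon bases, so its count is uncertain to that extent. AP-2 alpha is also made by neural crest derivatives, and the cell types behind these reads cannot be told apart.

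Grhl2 and Grhl3, Grainyhead-like factors that activate junction and barrier genes, were among the least abundant members. Grhl2, at chr15:37233036-37363569 on the plus strand, read 3.97, 4.44 and 2.66 CPM for control against 2.08, 3.83 and 2.51 CPM for Lhx6-/-. Grhl3, at chr4:135541888-135573630 on the minus strand, read 0.87, 1.71 and 2.54 CPM for control against 0.88, 1.49 and 1.25 CPM for Lhx6-/-. The genotypes overlapped for both, and for Grhl3 the means, 1.70 ± 0.83 CPM (SD, n = 3) and 1.21 ± 0.31 CPM (SD, n = 3), differed by less than the SD of the control libraries. The log2 fold change was -0.40 (95% interval -0.99 to 0.19) for Grhl2 and -0.49 (95% interval -1.34 to 0.36) for Grhl3, so falls of more than 1.5-fold lie inside both intervals. Each met the fold and unadjusted p rule in a single fit with a library left out, Grhl3 without control replicate 1 (log2 fold change -0.80) and Grhl2 without Lhx6-/- replicate 2 (-0.68). Grhl2 shares 2.0% of its exon bases with the antisense gene Gm16136. That gene read 1.59, 2.67 and 2.27 CPM for control against 0.72, 0.64 and 1.56 CPM for Lhx6-/-. Its log2 fold change was -1.15 (unadjusted p = 0.00988, adjusted p = 0.302 by edgeR), and its part in the Grhl2 count was not tested.

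Sox2, a stem cell factor of the dental cervical loop, lies at chr3:34650405-34652461 on the plus strand. Control libraries held 1.17, 2.50 and 1.59 CPM and Lhx6-/- libraries 0.98, 1.09 and 1.55 CPM. The genotypes overlapped, and control replicate 2 stood above the other 5 libraries. The log2 fold change, -0.54 (SE 0.35, 95% interval -1.29 to 0.21), was the furthest from 0 among the members, and its adjusted p was 0.690 from edgeR. Leaving out each library in turn moved it between -0.76 and -0.19. Sox2 lies inside Sox2ot, a long transcript of the same strand with which it shares 0 annotated exon bases and which stood at 0.77 CPM in control and 0.69 CPM in Lhx6-/- tissue. Schwann cell and glial progenitors can also make Sox2. Of 9 markers of those cells 8 had a fitted difference above 0, where 50.3% of all genes lay below 0. The summed level of the 9 overlapped between genotypes, at 188, 536 and 367 CPM for control against 435, 213 and 527 CPM for Lhx6-/-. Both this sum and Sox2 were highest in control replicate 2. The part of these cells in the Sox2 level was not tested.

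Esrp1, an RNA-binding protein that sets the epithelial pattern of splicing, lies at chr4:11331933-11386783 on the minus strand. It read 17.5, 28.2 and 22.4 CPM for control against 16.1, 17.8 and 18.0 CPM for Lhx6-/-. The genotypes overlapped only through control replicate 1, which lay just under the 2 higher Lhx6-/- libraries. The log2 fold change was -0.39 (SE 0.15, 95% interval -0.72 to -0.060), close to that of Trp63, and the Lhx6-/- mean was 76.4% of control. Its unadjusted p was 0.0247 and its adjusted p 0.413 from edgeR. The unadjusted p from edgeR rose to 0.126 without control replicate 2 and to 0.0829 without Lhx6-/- replicate 1.

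Epcam, the epithelial cell adhesion molecule, lies at chr17:87635979-87651129 on the plus strand. Control libraries held 6.02, 8.92 and 6.10 CPM and Lhx6-/- libraries 7.10, 7.55 and 5.36 CPM. The genotypes overlapped widely, and Lhx6-/- replicates 1 and 2 stood above 2 of the 3 control libraries. The log2 fold change was -0.074 (SE 0.19, 95% interval -0.49 to 0.35), and it turned to 0.14 without control replicate 2.

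**Figure D2:**
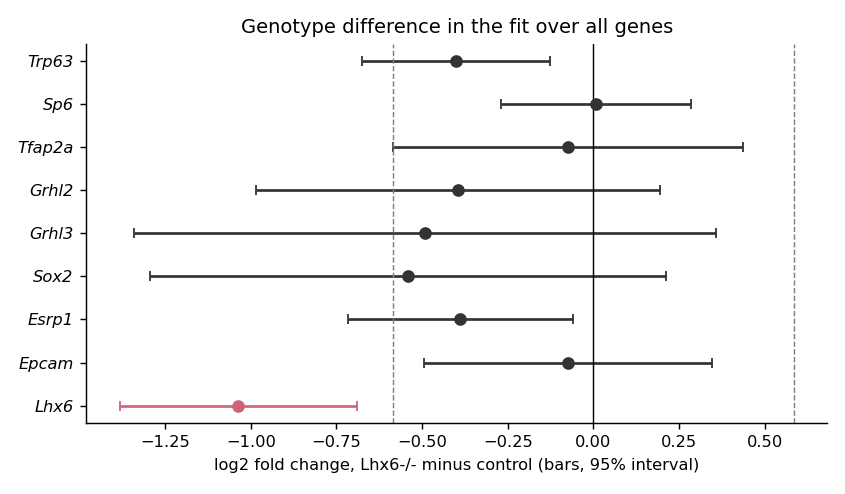
Fitted log2 fold change of each member and of Lhx6, Lhx6-/- minus control (horizontal axis), with 95% intervals from edgeR and dashed lines at a 1.5-fold change. The intervals of Trp63 (-0.68 to -0.13) and Esrp1 (-0.72 to -0.060) exclude 0 before adjustment, and those of the other 6 members include it.

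Upstream sequence is shown for Epcam and Grhl3 because both hold the letters CAGGTG, the E-box that the mesenchymal repressors Zeb and Snai are known to bind in epithelial genes, and the GC box GGGCGG of Sp and Klf factors. The promoter table from RefSeq (GRCm38.p6) holds entries for Epcam, Grhl3, Sox2 and Tfap2a, the last with 2 starts. The windows below are the 250 bases before the annotated start, 5′ to 3′ on the gene's strand, with capitals marking CAGGTG or GGGCGG on either strand (CACCTG and CCGCCC when read on the other).
Epcam (chr17:87635729-87635978, plus strand): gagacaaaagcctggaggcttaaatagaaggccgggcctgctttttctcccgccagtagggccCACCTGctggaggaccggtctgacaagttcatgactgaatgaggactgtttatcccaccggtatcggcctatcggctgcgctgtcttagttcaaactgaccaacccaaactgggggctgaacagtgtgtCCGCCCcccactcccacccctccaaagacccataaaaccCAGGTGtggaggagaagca
Grhl3 (chr4:135573633-135573882, minus strand): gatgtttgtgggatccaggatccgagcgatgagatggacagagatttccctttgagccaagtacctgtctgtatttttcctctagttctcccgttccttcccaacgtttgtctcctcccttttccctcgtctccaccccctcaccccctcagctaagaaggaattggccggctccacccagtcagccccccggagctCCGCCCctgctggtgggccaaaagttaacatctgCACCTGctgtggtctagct

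Epcam held CAGGTG at 187 and 19 bases before its start and GGGCGG at 58 bases, and Grhl3 held CAGGTG at 19 bases and GGGCGG at 53 bases. Sox2 held GGGCGG at 223 and 111 bases before its start, and the starts of Tfap2a held it at 161 and 13 bases. For these 2 genes the RefSeq starts are not the ends of the spans given above. The Sox2 window is chr3:34649745-34649994, upstream of the span. Those of Tfap2a, chr13:40734921-40735170 and chr13:40733796-40734045, lie inside it. Of 32536 distinct windows cut to the bases before the start, as above, 17.3% held CAGGTG and 33.0% held GGGCGG on either strand. The entries of the promoter table run 50 bases further, past the start, and those bases were left out. The Grainyhead-like motif AACCGGTT (0.117% of windows), its shorter form CCGGTT, which lies within it (5.66%), the AP-2 motif GCCNNNGGC (13.8%) and the Sox motif ATTGTT (9.35%) were not found in the windows of these 4 genes. Such matches describe letters only.

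Libraries of 1 genotype differed from each other, and most members had the same highest library. Control replicate 2 was the highest library for 7 of 8 members, with control replicate 3 highest for Grhl3, and Lhx6-/- replicate 1 was the lowest for 5. Over the 6 libraries Pearson's r of log2 CPM was 0.985 between Trp63 and Esrp1, 0.937 between Sox2 and Esrp1 and 0.929 between Trp63 and Sox2. Depth and the levels of cell type markers differed between the libraries, and their part in these correlations was not tested. The correlations describe 6 points and include the genotype difference. The other pairs were lower, with r of 0.77 for Sp6 and Sox2, 0.32 for Sp6 and Grhl2 and 0.14 for Grhl2 and Grhl3. Tfap2a and Grhl3 ran least together (r = -0.20). The genes whose profile was most like the mean of the standardized member profiles, of 15113 candidates, were Rps4x, Mtch2, Cs, Eif3e, Smarca5, Etfdh, Gcat, Irx2, Fkbp1b and Bmp3, with Pearson's r of 0.985 to 0.991 over the 6 libraries.

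The members were next set against the summed level of Krt5, Krt14, Krt15, Krt17 and Cdh1, keratins of basal epithelium and its cadherin. This sum tracks a few structural genes, 3 of which met the fold and unadjusted p rule themselves. It is small beside the sum of 10 ameloblast genes, which ran from 135754 to 145533 CPM in control and from 115184 to 146556 CPM in Lhx6-/- tissue. The keratin and cadherin sum read 982, 1557 and 1044 CPM for control against 666, 735 and 797 CPM for Lhx6-/-, and none of the 5 genes was at 0. The genotypes did not overlap, and control replicate 2 was highest here too. Per unit of this sum, Sp6 was higher in Lhx6-/- tissue by 0.69 on the log2 scale, Tfap2a by 0.66 and Epcam by 0.61, each without overlap between genotypes (exact permutation p = 0.1, two-sided, the smallest that 3 against 3 libraries can give). Esrp1 (0.31) and Trp63 (0.29) were higher by less, also without overlap (exact permutation p = 0.1). Grhl3, Grhl2 and Sox2, at 0.28, 0.27 and 0.18, overlapped between genotypes. The 5 of 8 members without overlap stood beside 72.3% of the 17419 other genes with at least 10 counts per library, which were likewise all higher per unit of this sum, so the separation is no result about the members. With the desmosomal and hemidesmosomal genes Dsp, Perp and Itgb4 as the reference, Sp6 kept a difference of 0.36 without overlap (exact permutation p = 0.1), Tfap2a of 0.34 and Epcam of 0.29, both with overlap, while Trp63 turned to -0.037 and Esrp1 to -0.012. The separation of Sp6, 1 of 8 members, stood beside 38.3% of 17421 other genes. How much of any member's level followed epithelial content was not tested.

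The level of each member was also divided by that of Trp63 in the same library, a measure chosen after the values were seen and given as a description. Esrp1 held a ratio of 0.386 to 0.427 over all 6 libraries. Its coefficient of variation, 3.62%, was the lowest among 15101 genes with a mean of at least 1 CPM, whose median was 21.1%. Other genes came close behind it, with Sstr2 at 4.01%, Celf2 at 4.50% and Stard10 at 4.56%. The ratio of Sp6 to Trp63 was 4.68, 4.25 and 4.10 for control against 5.47, 5.44 and 6.26 for Lhx6-/-, without overlap. Non-overlapping ratios to Trp63 were common, at 37.7% of the 17423 genes that reached 10 counts in each of the 6 libraries, so the separation of Sp6 alone is no result about Sp6. The ratios of Tfap2a, Grhl2, Grhl3, Sox2 and Epcam to Trp63 overlapped between genotypes.

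**Figure D3:**
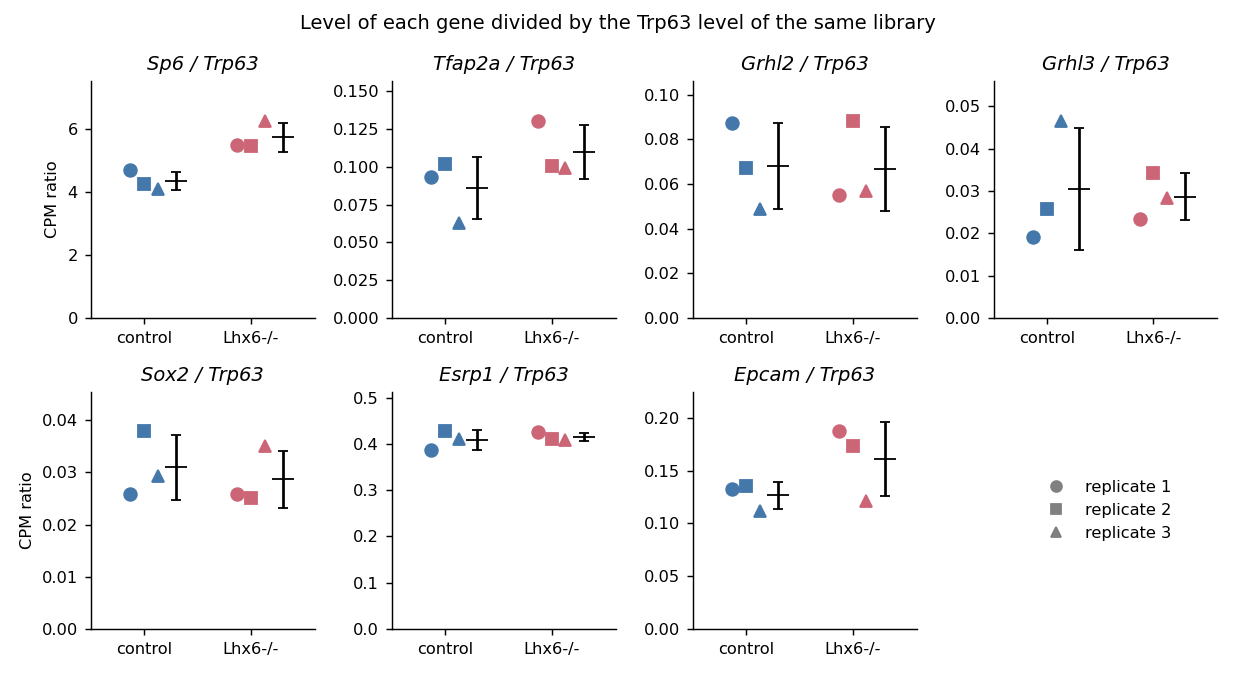
Level of each of the other 7 genes divided by the Trp63 level of the same library (vertical axis, ratio of CPM, from 0), with 3 control (blue) and 3 Lhx6-/- (red) libraries per panel and the mean ± SD beside them. Esrp1 stays between 0.386 and 0.427 in all libraries, and Sp6 lies at 4.10 to 4.68 in control and at 5.44 to 6.26 in Lhx6-/- tissue.

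The members stood within a wider epithelial programme of 69 genes in 3 lists, drawn up with earlier results of these data known. Of these, 14 met the fold and unadjusted p rule as lower in Lhx6-/- tissue and 0 as higher (20.3%), beside 1.71% lower and 1.58% higher among all genes, and 22 had an unadjusted p under 0.05. With an adjusted p under 0.05 there were 0 in edgeR and in limma-trend and limma voom, and 7 in DESeq2, which called 315 of all 20114 genes (1.57%). In edgeR 5 of the 69 had an adjusted p under 0.05 without control replicate 1, and 1 without control replicate 2. The median log2 fold change over the 69 was -0.28, and 62 had a fitted difference below 0. The count of 14 rested on single libraries: it dropped to 4 when control replicate 2 was left out and to 6 when Lhx6-/- replicate 1 was.

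Among 24 transcription and splicing factors that work beside the members, 4 met the rule and all were lower. Among them were Tfap2c, a further AP-2 factor, and Ovol1 and Zfp750, factors of epidermal differentiation. Tfap2c and Ovol1 were low, at means of 1.05 and 1.12 CPM in control against 0.50 and 0.41 CPM in Lhx6-/- tissue. Zfp750 had a log2 fold change of -0.80 (SE 0.26, adjusted p = 0.353 by edgeR). Close relatives of members gave -0.53 for Esrp2, -0.56 for Grhl1 and -0.11 for Tfap2b, none of which met the rule. Of 25 adhesion and basement membrane genes 5 met the rule, all lower, and they included the desmosomal genes Dsp (log2 fold change -0.71), Dsg3, Dsc2 and Dsc3. In a mixed list of 20 epithelial genes, with proteases, inhibitors, trafficking genes and others, 5 met it, all lower. They were Rab25, Tmprss4, Ripk4, Ppl and Sfn, with Tmprss4 low, at a mean of 0.54 CPM in control and 0.18 CPM in Lhx6-/- tissue. Without control replicate 2 these counts were 1, 2 and 1 for the 3 lists in this order, without Lhx6-/- replicate 1 they were 2 each, and without control replicate 1 that of the transcription and splicing factors was 9. The 5 adhesion genes became 3 without Lhx6-/- replicate 3, and the 5 genes of the mixed list became 3 without control replicate 3.

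**Figure D4:**
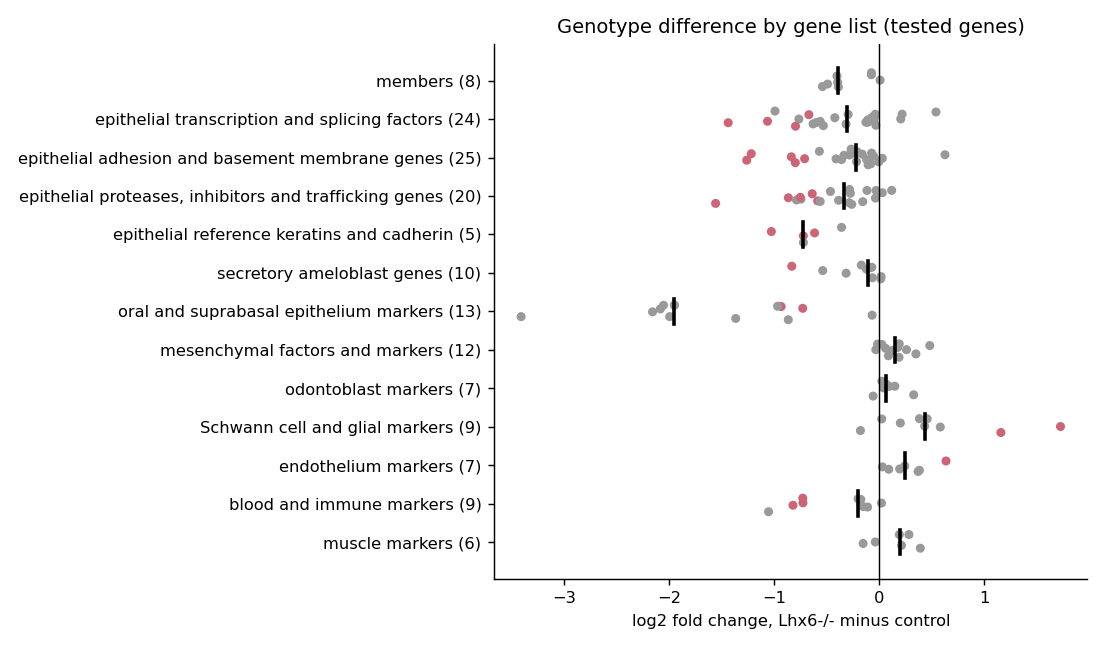
Fitted log2 fold change, Lhx6-/- minus control (horizontal axis), of each tested gene by list, with the number tested in parentheses, the median as a black bar and genes meeting the fold and unadjusted p rule in red. Members sit at a median of -0.39 with none in red, and the 3 wider epithelial lists hold 14 red points, all below 0.

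Markers of other epithelia and other cell types that such tissue can hold also differed with genotype. Krt5, Krt14 and Krt17 of the 5 reference genes met the rule as lower. Of 13 oral and suprabasal epithelial markers tested, 2 met it as lower, Krt4 and Krt13, keratins of the oral mucosa. All 13 had a fitted difference below 0, beside 50.3% of all genes, and their median log2 fold change was -1.95. The summed level of these 13 ran from 688 to 1358 CPM in control and from 534 to 648 CPM in Lhx6-/- tissue, without overlap. The 3 reference genes became 1 without control replicate 2. The 2 oral markers became 7 without control replicate 1, 6 in DESeq2, 10 with a non-robust dispersion, and 1 without Lhx6-/- replicate 1 or 3. The 10 ameloblast genes, drawn up as a secretory list, also hold Amtn, Odam, Klk4 and Odaph, which belong to the maturation stage. Their sums overlapped between genotypes, and the secretory products Amelx, Ambn and Enam had log2 fold changes of -0.12, -0.070 and 0.017. Odaph met the rule as lower, and Amtn passed with an adjusted p of 0.0210 in edgeR (-0.54). No mesenchymal (0 of 12), odontoblast (0 of 7) or muscle (0 of 6) gene met the rule in edgeR, DESeq2, limma-trend or limma voom. At an unadjusted p under 0.05 edgeR passed 6, 1 and 1 of them, all higher, beside 9.81% of all genes. At an adjusted p of 0.05 DESeq2 passed 2, 1 and 0 of them, beside 1.57% of all genes. Fitted differences lay above 0 for 10 of 12, 6 of 7 and 4 of 6, where 50.3% of all genes lay below 0. All Lhx6-/- libraries stood above all control libraries for 7, 2 and 0 of them, where 15.5% of all genes had no overlap in either direction. Among 9 Schwann cell and glial markers Cdh19 and Foxd3 met the fold and unadjusted p rule as higher, and among 7 endothelial markers Cldn5 did. Among 9 blood and immune markers Hbb-bs, Hba-a1 and Alas2 met it as lower. Of all genes 1.58% met it as higher and 1.71% as lower. At an unadjusted p under 0.05 edgeR passed 5 of the 7 endothelial markers, all higher. The endothelial sum ran from 255 to 268 CPM in control and from 296 to 344 CPM in Lhx6-/- tissue, without overlap. The blood and immune sum ran from 2096 to 2883 CPM in control and from 1241.5 to 1681 CPM in Lhx6-/- tissue, also without overlap. Without control replicate 2 the Schwann cell and glial count was 4 and the blood and immune count 1, and the ameloblast count was 2 without Lhx6-/- replicate 1 and 0 without control replicate 1 or Lhx6-/- replicate 3. The part of these cell types in the members' levels was not tested.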

How the data were processed

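The authors trimmed single-end reads, aligned them to mm10 with STAR 2.6.1d and quantified genes in Partek, and the deposited values are estimated counts of 23594 genes per library, not normalized. The counter, strand setting and annotation are not given in the sources used here. A deposited table of the authors also holds a score per genotype (1 + counts per 1e+06, averaged), used only to test that its gene order matches the counts (largest relative deviation 5.1e-08). Its ratios, fold changes, p-values, false discovery rates and limits, all of the authors' own comparison, were not used.

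Counts were rounded and tested with edgeR 4.0.16 (R 4.3.3): TMM, its expression filter, robust quasi-likelihood test, genotype alone, two-sided, Benjamini-Hochberg over 20114 genes. The SE is the log2 fold change over the square root of F. The biological coefficient of variation was 0.202. With 3 libraries per genotype, the spread between libraries set the precision. Exons came from GENCODE vM21 and promoters from RefSeq. The 16 alternatives included DESeq2 1.42.0, limma 3.58.1, other scalings and filters, a replicate block, an epithelial covariate and each library left out. The code was tested on simulated counts with trended dispersions, a choice made after a first simulation with gene-wise dispersions had given fewer recovered changes and more false calls. Figures used matplotlib 3.10.9.

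Members and lists were chosen with earlier results of these data known. Genes planned for naming were Lhx6, the members and the 10 most like them. From each list the plan took the first 3, those with the smallest p and those with an adjusted p under 0.05. Not all of these list genes are named here. Further list genes meeting the rule, and Esrp2, Sox2ot and the antisense genes, were named after their values were seen. Of the sex-linked list, Kdm5d met the rule as higher (1 of 5). Some list genes that met the rule are counted but not reported by name here.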

Additional observations from a re-analysis of the deposited data

How the results depend on the processing

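In all 16 alternatives 0 members had an adjusted p under 0.05. The fold and unadjusted p rule called 0 to 1 members with each library left out, and 4 to 21 of the 69 wider epithelial genes. Those were 7 with limma voom and 3 with the epithelial reference level as a covariate, against 14. That covariate differs between the genotypes without overlap, so covariate and genotype cannot be told apart. With it the log2 fold change turned to 0.088 for Trp63, 0.56 for Sox2, 0.67 for Tfap2a, 0.036 for Grhl2, 0.39 for Epcam and 0.19 for Esrp1. Sp6 moved to 0.49, with an unadjusted p of 0.00138 and an adjusted p of 0.146 from edgeR, the 1 member with an unadjusted p under 0.05 in that fit. With limma voom it turned to 0.037 for Tfap2a and 0.0092 for Epcam. With each library left out, log2 fold changes ran from -0.10 to 0.14 for Sp6, from -0.27 to 0.25 for Tfap2a and from -0.17 to 0.14 for Epcam. Sp6 was -0.064 without control replicate 1, -0.037 without control replicate 3 and -0.10 without Lhx6-/- replicate 3. Epcam was 0.063 without Lhx6-/- replicate 3. Per epithelial reference, the use of Dsp, Perp and Itgb4 turned Trp63 to -0.037, Sox2 to -0.15, Grhl2 to -0.060, Grhl3 to -0.045 and Esrp1 to -0.012, and with each library left out Grhl3 ran from -0.014, without control replicate 1, to 0.72, without control replicate 3. The cause of these turns was not tested.

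By the numbers of the sample titles, same-numbered libraries did not deviate together (r = 0.026, -0.029 and -0.031). With 3 libraries per genotype such correlations cannot decide whether libraries were paired, so no conclusion on pairing is drawn. The paper counts the sequenced libraries in pairs but does not name the partners. The count table numbers the Lhx6-/- libraries 2, 3 and 4, and by those numbers r was -0.062 and -0.0064 for the numbers that both genotypes carry. With the replicate block, 134 genes had an adjusted p under 0.05 in edgeR against 81 without it, 6 of the 69 wider epithelial genes were among them against 0 without it, 0 members were called, and Trp63 stood at -0.39. Sox2, Grhl2 and Grhl3 have the widest intervals of the members.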
